A study of Mus musculus with 21 samples.

Results

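The receptors described here are the histamine receptors Hrh1, Hrh2 and Hrh3, the adrenergic receptors Adra1a, Adra1b, Adra2a, Adra2c and Adrb1, and the dopamine receptors Drd1a and Drd2. These 10 genes, of the 35266 genes counted in the series, were chosen by symbol, and Hrh3 was singled out because its transcript differed between fed and food-deprived mice in opposite directions in the 2 cell types. All values of Hrh3 are therefore given as a description, without a test, while the other 9 receptors were tested within a model fitted to all genes.

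RNA-Seq was performed on fluorescent neurons picked by hand from the arcuate nucleus (ARC) of 21 male mice on a C57BL/6J background, with 1 library per mouse and 44 to 214 neurons pooled in each. AGRP neurons came from NPY-hrGFP mice that were fed (AGRP fed, n = 5, postnatal day 46 to 55) or had only water for 24 hr (food-deprived, AGRP FD, n = 6, postnatal day 47 to 55). POMC neurons came from Pomc-GFP mice, again fed (POMC fed, n = 5, postnatal day 51 to 56) or 24 hr food-deprived (POMC FD, n = 5, postnatal day 54 to 56). In the NPY-hrGFP line the fluorescent protein reports Npy, not Agrp, and the study calls these cells AGRP neurons.

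Libraries held 9822298 to 37663979 gene counts (median 19189780), so that 3 counts, taken here as the floor of detection, corresponded to 0.0797 to 0.305 CPM, the count of a gene scaled to the total of its library. Pomc in AGRP libraries was at most 0.746% of the mean level in POMC neurons of the same feeding state, and Agrp in POMC libraries was at most 1.16% of the level in AGRP neurons. The sum of 16 astrocyte, oligodendrocyte, microglia and endothelial markers was 37.1 to 52.3 TPM (scaled for gene length and library) in AGRP fed, 28.1 to 47.4 in AGRP FD, 19.0 to 35.8 in POMC fed and 28.3 to 55.6 in POMC FD libraries. Of these markers C1qa was listed at 0 in all libraries, and Aldh1l1, an astrocyte gene, rose in AGRP FD from 0.045 TPM or less to between 0.22 and 5.15 TPM (log2 fold change 5.91 ± 1.77 SE, q = 0.0284). The other 3 astrocyte markers did not pass, and their mean TPM was lower in AGRP FD than in AGRP fed libraries. Gja1 went from 1.17 to 0.490, Aqp4 from 0.885 to 0.518 and Gfap from 1.64 to 1.03 TPM. The part of astrocyte RNA in the receptor results was not tested. The sum of 6 markers of other hypothalamic neurons (Th, Slc6a3, Ghrh, Kiss1, Tac2, Hdc) was 3.06 to 10.8 TPM in AGRP fed, 1.74 to 47.5 in AGRP FD, 1.53 to 9.31 in POMC fed and 1.41 to 22.9 in POMC FD libraries. The highest library was AGRP FD replicate 2, with Th at 29.8, Hdc at 10.3 and Slc6a3 at 7.48 TPM, and without it Hrh1 and Adra1a still passed in AGRP neurons (q = 0.005003 and 0.0264). In pooled cells, fewer cells that express a gene and less RNA per cell cannot be told apart.

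Histamine, noradrenaline, adrenaline and dopamine are amines released by neurons of the hypothalamus and brainstem, and all of the receptors described here are G protein-coupled. Hrh1, Adra1a and Adra1b couple to Gq, which activates phospholipase C. Hrh2, Adrb1 and Drd1a raise cyclic AMP through Gs or Golf, whereas Hrh3, Adra2a, Adra2c and Drd2 couple to Gi/o, which lowers cyclic AMP, opens potassium channels and inhibits transmitter release. Hrh3 is known as an autoreceptor of histamine neurons and as a receptor on many other neurons.

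Hrh3 lies on the minus strand of mm10 at chr2:180099464-180104488. Hrh1, on the plus strand at chr6:114397935-114483296, is a long gene with several start sites. The stretches directly before their first bases are shown because the transcripts of both genes differed between fed and FD mice, and they were taken from the RefSeq promoter table (GRCm38.p6, the assembly behind mm10), ending where the genes begin. They cover chr2:180104489-180104657 (minus strand) and chr6:114397686-114397934 (plus strand), are written 5′ to 3′, and carry GC boxes (GGGCGG, searched on both strands) in capitals.
Hrh3: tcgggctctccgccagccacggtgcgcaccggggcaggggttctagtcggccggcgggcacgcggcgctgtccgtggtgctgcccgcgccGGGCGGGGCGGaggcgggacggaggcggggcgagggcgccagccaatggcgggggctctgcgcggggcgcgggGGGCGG
Hrh1: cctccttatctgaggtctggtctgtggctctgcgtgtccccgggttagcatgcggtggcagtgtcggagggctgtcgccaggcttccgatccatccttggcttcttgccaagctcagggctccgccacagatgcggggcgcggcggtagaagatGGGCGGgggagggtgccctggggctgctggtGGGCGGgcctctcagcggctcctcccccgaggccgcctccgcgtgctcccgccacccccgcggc
The Hrh3 stretch of 169 bases was 82.8% G or C and held 3 GC boxes, of which the first and second share 1 base. The Hrh1 stretch of 249 bases was 71.1% G or C and held 2 GC boxes. A GC box was present in 35.7% of the 32851 promoter windows of the table, whose median content of G or C was 52.7%. Neither stretch held an E-box (CACGTG, in 7.15% of windows), an AP-1 motif (TGANTCA, 7.81%), a cyclic AMP response element (TGACGTCA, 1.79%) or a TATA box (TATAAA, 13.6%). The windows are longer than both stretches and include bases past the start, so these shares are not for stretches of equal length. The window of another Hrh1 start, chr6:114458272-114458571, had 1 AP-1 match. The table had windows for 9 of the 10 receptors, and Adra1a is named without a sequence.

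Hrh3 was high in AGRP neurons of fed mice, with normalized CPM (CPM on library sizes scaled by TMM) of 114, 122, 120, 116 and 137. In AGRP FD libraries Hrh3 ranged from 6.44 to 21.6 normalized CPM with a median of 15.4. In POMC fed libraries it was 8.78, 12.4, 9.66, 10.9 and 8.11 normalized CPM, and in POMC FD libraries 112, 22.8, 53.2, 55.5 and 64.6. Every AGRP FD library was below every AGRP fed library, and every POMC FD library was above every POMC fed library. The fed values were tightly grouped in both cell types, whereas those of POMC FD were widely spread.

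The fitted log2 fold change of Hrh3 between FD and fed mice was -3.04 ± 0.30 (SE) in AGRP neurons, or 8.24-fold lower, and 2.63 ± 0.32 in POMC neurons, or 6.19-fold higher. The change in AGRP neurons differed from that in POMC neurons by -5.67 ± 0.44 on the log2 scale. With food deprivation the order of the cell types for Hrh3 turned over, from a log2 difference between AGRP and POMC neurons of 3.61 ± 0.33 in fed mice to -2.06 ± 0.29 in FD mice.

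No FD library overlapped a fed library for Hrh3 in either cell type, so any split of the libraries keeps these directions. The values within batches therefore describe only the size of the change. AGRP mice fell into 2 age groups, in which the log2 fold change of Hrh3 was -2.82 (2 fed and 3 FD mice of postnatal day 46 or 47) and -3.35 (3 fed and 3 FD mice of postnatal day 51 to 55). All younger AGRP libraries, and no older ones, received spike-in RNA at a volume set by cell number. Age and this handling therefore cannot be told apart in AGRP neurons. In the POMC libraries that received the same 1 µl of ERCC spike-in RNA (3 fed, 3 FD), it was 2.71. The remaining POMC FD libraries received 10 µl and the remaining POMC fed libraries a volume set by cell number, so that beyond the 1 µl libraries this difference in handling and feeding state cannot be told apart. Scaled by spike-in RNA per sorted cell, the median change of all genes in POMC neurons was -1.11 and that of Hrh3 was 1.42. This scaling uses the spike-in volume, so the shift of all genes and the difference in volume cannot be told apart. The antisense gene Gm17180, whose exons overlap those of Hrh3 and whose reads were not separated by strand, had at most 23 counts in any library against 158 to 2565 for Hrh3. Reads lying wholly in exon bases shared by both genes were counted for neither. These counts therefore do not measure antisense reads in the overlap.

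**Figure D1:**
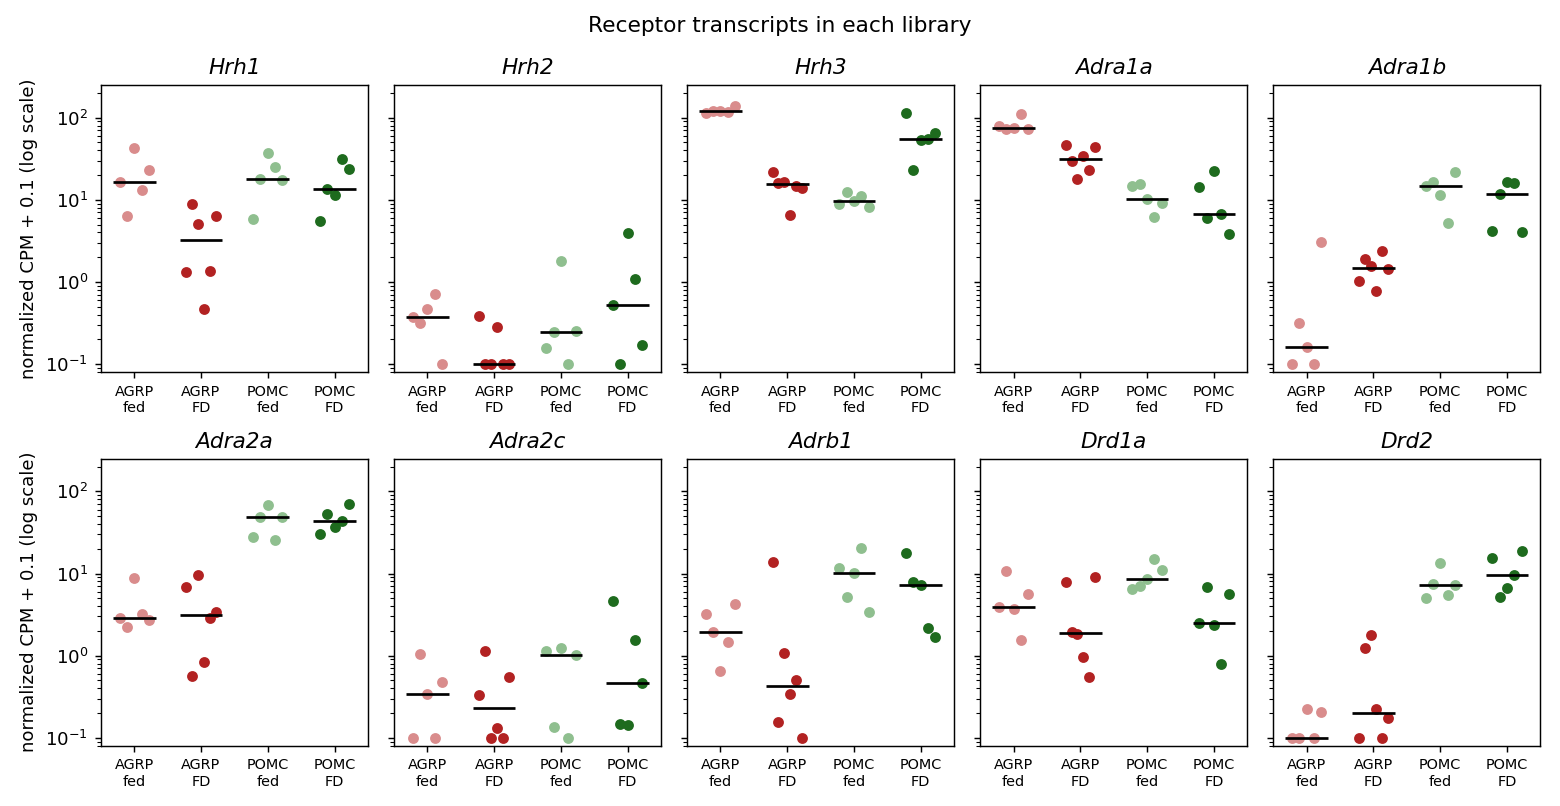
Normalized CPM of the 10 receptors, plus 0.1 and on a log scale, in every library (points) of the 4 groups, with lines at the group medians. Hrh3 lay at 114 to 137 in AGRP fed and 6.44 to 21.6 in AGRP FD libraries, and at 8.11 to 12.4 in POMC fed and 22.8 to 112 in POMC FD libraries.

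Hrh1 fell in AGRP neurons with food deprivation and not detectably in POMC neurons. Its normalized CPM was 16.4, 6.22, 42.3, 12.9 and 22.6 in AGRP fed libraries and ranged from 0.364 to 8.80 (median 3.15) in AGRP FD libraries. In POMC neurons Hrh1 was at 5.74, 17.98, 37.0, 24.8 and 17.5 normalized CPM in fed and at 5.43, 13.6, 11.3, 31.1 and 23.4 in FD mice. The AGRP groups overlapped, since 1 fed library was within the FD range, and the POMC groups overlapped throughout.

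The log2 fold change of Hrh1 was -2.40 ± 0.62 (SE) in AGRP neurons (5.26-fold lower, q = 0.0113) and -0.28 ± 0.63 in POMC neurons (q = 0.917, 95% interval -1.57 to 1.00), where q is the adjusted p of the edgeR quasi-likelihood test over all genes. The difference between these changes, -2.11 ± 0.88, did not pass the test (q = 0.160). Between the cell types, the difference of Hrh1 in fed mice was -0.04 (95% interval -1.32 to 1.25, q = 0.988), and Hrh1 was lower in AGRP than in POMC neurons of FD mice (-2.15 ± 0.62, q = 0.0132). Without AGRP fed replicate 3, the library at 42.3, the AGRP change was -1.93 with q = 0.0627, and without POMC FD replicate 4, the library at 31.1, the difference in FD mice had q = 0.0506. Within the age groups, with fewer mice, the AGRP change was -1.84 (q = 0.451) and -3.04 (q = 0.0568).

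Hrh2, at chr13:54192128-54222432 on the plus strand, was near the floor in every group. It ranged from 0 to 0.616 normalized CPM in AGRP fed, 0 to 0.288 in AGRP FD, 0 to 1.69 in POMC fed and 0 to 3.80 in POMC FD libraries. None of its comparisons passed the test, and the largest difference was between the cell types in FD mice (-3.61 ± 1.64, q = 0.131). The antisense gene Gm16578 overlaps its exons and had up to 69 counts in a library, while Hrh2 itself had at most 90, so the reads of this pair are uncertain.

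Of the 5 adrenergic receptors, Adra1a (chr14:66635250-66733462, plus strand) was the one higher in AGRP than in POMC neurons. In AGRP fed libraries it was at 78.5, 72.6, 74.5, 110 and 73.1 normalized CPM, and in AGRP FD libraries at 18.02 to 45.8 (median 31.5). In POMC neurons it was at 14.4, 15.6, 10.2, 6.05 and 9.13 normalized CPM in fed and 14.2, 5.87, 22.4, 6.58 and 3.70 in FD mice. All AGRP FD libraries were below all AGRP fed libraries, and in fed mice the cell types did not overlap.

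Adra1a fell in AGRP neurons of FD mice by 1.35 ± 0.36 (SE) on the log2 scale (2.54-fold lower, q = 0.0128), and its change in POMC neurons was -0.07 ± 0.37 (q = 0.976, 95% interval -0.83 to 0.70). The difference between these changes was -1.28 ± 0.52 and did not pass the test (q = 0.146). Adra1a was higher in AGRP than in POMC neurons in fed mice (2.88 ± 0.40, q = 5.05e-06) and, by a smaller amount, in FD mice (1.60 ± 0.37, q = 0.00206). Within the age groups the AGRP change was -1.57 in the younger mice (q = 0.132) and -1.17 in the older ones (q = 0.0225).

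Adra1b (chr11:43774605-43901210, minus strand), the other Gq-coupled adrenergic receptor here, had the opposite distribution. Normalized CPM was 0, 0.220, 0.0608, 0 and 2.94 in AGRP fed and 0.668 to 2.28 (median 1.40) in AGRP FD libraries. In POMC fed libraries it was 14.7, 16.1, 11.4, 5.09 and 21.96, and in POMC FD libraries 4.04, 11.6, 16.6, 15.8 and 3.91. All POMC libraries were above all AGRP libraries. Adra1b was lower in AGRP neurons by a log2 difference of -4.42 ± 1.01 in fed mice (q = 0.00383) and -2.88 ± 0.87 in FD mice (q = 0.0185). The size in fed mice is uncertain, since 3 of the 5 AGRP fed libraries were at or under the floor and the fitted difference was -7.56 without AGRP fed replicate 5.

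The change of Adra1b with food deprivation did not pass the test in AGRP neurons (1.12 ± 0.88, q = 0.505) or in POMC neurons (-0.42 ± 0.87, q = 0.910). The AGRP value depended on AGRP fed replicate 5, the library at 2.94. Without it the log2 fold change was 4.26 with q = 0.00229, and the contrast of this change with that in POMC neurons was 4.68 with q = 0.00883. Even so, the level reached in AGRP FD neurons remained low.

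Adra2a (chr19:54045181-54048982, plus strand), a Gi/o-coupled receptor for noradrenaline and adrenaline, was POMC-enriched. It was at 2.74, 2.15, 8.76, 3.08 and 2.62 normalized CPM in AGRP fed and 0.460 to 9.47 (median 3.07) in AGRP FD libraries. In POMC neurons it was at 27.4, 49.0, 68.4, 25.7 and 48.3 normalized CPM in fed and 30.2, 52.4, 36.3, 43.6 and 69.7 in FD mice. The cell types did not overlap in either feeding state, and FD and fed libraries overlapped in both cell types. AGRP neurons were lower by a log2 difference of -3.50 ± 0.58 in fed mice (11.3-fold, q = 8.98e-05) and -3.57 ± 0.54 in FD mice (11.9-fold, q = 1.14e-05). The changes with food deprivation were 0.02 (95% interval -1.04 to 1.08, q = 0.994) in AGRP and 0.09 (-0.99 to 1.16, q = 0.979) in POMC neurons.

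Adra2c (chr5:35278565-35281761, plus strand), a related Gi/o-coupled receptor, reached at most 1.03 normalized CPM in AGRP and 4.47 in POMC libraries and was at or under the floor in 9 of the 21 libraries. No comparison of Adra2c passed the test.

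Adrb1 (chr19:56722371-56724862, plus strand), a Gs-coupled receptor, was spread widely within groups. Normalized CPM was 3.11, 1.82, 0.547, 1.37 and 4.12 in AGRP fed libraries, 0 to 13.8 (median 0.324) in AGRP FD, 11.5, 5.07, 10.2, 20.5 and 3.28 in POMC fed and 17.5, 7.87, 7.19, 2.06 and 1.59 in POMC FD libraries. The AGRP FD values were below 1 in all libraries except replicate 1, which was at 13.8 and above every AGRP fed library. This library also had Ghrh, a marker of other arcuate neurons, at 10.6 TPM on 32 counts. Kiss1 and Tac2, from the same list of markers, were at 0 in all AGRP FD libraries. The part of other neurons was not tested. The log2 fold change of Adrb1 in AGRP neurons was 0.23 ± 1.00 (q = 0.932), and without AGRP FD replicate 1 it was -2.69 (q = 0.0469). The same library decided the comparison with POMC neurons in FD mice, which was -1.49 ± 1.00 (q = 0.338) with it and -4.41 (q = 0.00105) without it. In fed mice the difference between the cell types was -2.20 ± 1.08 (q = 0.268), and in POMC neurons the change with food deprivation was -0.48 ± 1.04 (q = 0.914).

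Drd2 (chr9:49340661-49407214, plus strand), the Gi/o-coupled dopamine receptor, was detected in POMC neurons and was close to the floor in AGRP neurons. In POMC fed libraries it was at 4.97, 7.44, 13.2, 5.41 and 7.13 normalized CPM, and in POMC FD libraries at 15.3, 5.06, 6.55, 9.62 and 18.5. No AGRP fed library had more than 2 counts of Drd2, and AGRP FD libraries were at 0 to 1.699 normalized CPM (median 0.0980). All POMC libraries were above all AGRP libraries.

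In fed mice, pooled over libraries, Drd2 had 868 counts in POMC and 4 in AGRP neurons, a ratio of 192 (exact 95% interval 74.6 to 705, counting error only). In the fitted model Drd2 was lower in AGRP neurons of fed mice (q = 0.000203) and of FD mice (log2 difference -4.43 ± 1.00, q = 0.00156), and the fitted fold in fed mice is not given because it depends on the prior count. In POMC neurons the change with food deprivation was 0.53 ± 0.93 (q = 0.894). In AGRP neurons the change of Drd2 did not pass the test (q = 0.0566), and leaving out AGRP FD replicate 1, 4, 5 or 6 gave q = 0.0276, 0.0493, 0.0328 and 0.0432. Of the AGRP FD counts of Drd2, 20 were in replicate 2, the library high in dopamine and histamine neuron markers, and 28 in replicate 3. Leaving out either of these gave q = 0.118 and 0.186, and the part of other neurons was not tested. The AGRP fed group was under the floor throughout, so no fold is given.

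Drd1a (chr13:54051185-54055658, minus strand), which couples to Gs or Golf, was low in all groups. It was at 3.80, 10.6, 3.65, 1.47 and 5.51 normalized CPM in AGRP fed libraries and 0.455 to 9.08 (median 1.80) in AGRP FD libraries. In POMC neurons it was at 6.35, 7.03, 8.44, 14.9 and 10.9 normalized CPM in fed and 2.39, 6.68, 2.28, 0.687 and 5.58 in FD mice. All groups overlapped their counterparts. The change in POMC neurons was -1.43 ± 0.76 (q = 0.469, 95% interval -2.99 to 0.13) and that in AGRP neurons -0.47 ± 0.72 (q = 0.776).

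**Figure D2:**
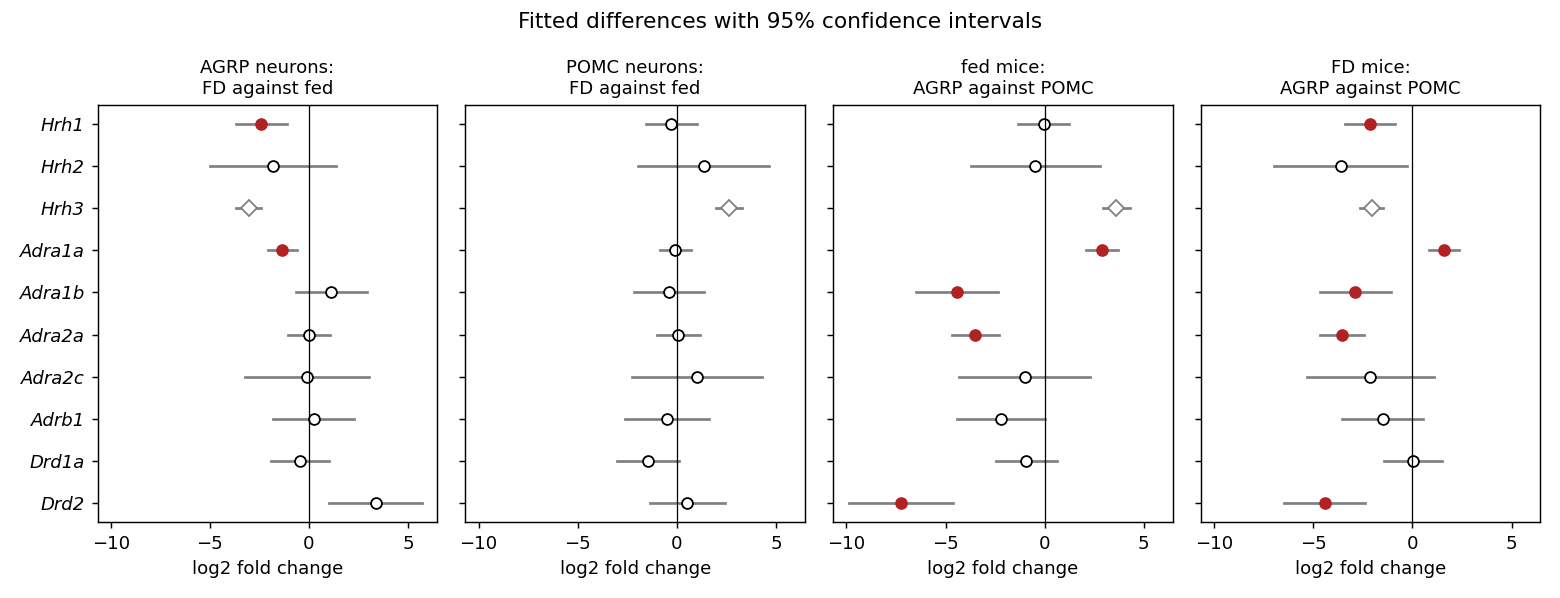
Fitted log2 fold changes of the 10 receptors in 4 comparisons, with 95% confidence intervals as bars. Filled circles mark q under 0.05, open circles the other tested values, and open diamonds the Hrh3 values that were not tested, such as -3.04 in AGRP and 2.63 in POMC neurons. Values of Hrh2 and Adra2c, and those of Drd2 that involve AGRP libraries, rest on counts close to the floor and are uncertain in size.

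Counted together, 2 of the 9 tested receptors fell and none rose in AGRP neurons with food deprivation, where 10.3% of the 16513 genes tested passed q under 0.05 (5.87% higher, 4.43% lower). In POMC neurons none of the 9 passed the edgeR test, none had an unadjusted p under 0.05, and limma-voom and DESeq2 also called none, in a comparison where 0.375% of all genes passed. The median log2 fold change over the 9 receptors was -0.10 in AGRP and -0.07 in POMC neurons, beside -0.02 over all genes in each. Libraries of fed and FD mice did not overlap for 1 of these 9 in AGRP neurons (Adra1a, beside 7.65% of all genes) and for 0 in POMC neurons (beside 2.35%).

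In fed mice 1 of the 9 tested receptors (Adra1a) was higher and 3 (Adra1b, Adra2a, Drd2) were lower in AGRP than in POMC neurons, in a comparison where 7.57% of all genes passed (3.33% higher, 4.24% lower). In FD mice 1 of 9 was higher (Adra1a) and 4 were lower (Hrh1, Adra1b, Adra2a, Drd2), where 18.6% of all genes passed (9.28% higher, 9.27% lower). The contrast of the AGRP change with the POMC change passed for none of the 9 by edgeR, limma-voom or DESeq2, and 2 of them (Hrh1, Adra1a) had an unadjusted p under 0.05, where 6.71% of all genes passed. The cell types did not overlap for 4 of the 9 in fed mice (8.93% of all genes) and for 3 in FD mice (11.4%). Under spike-in scaling per cell, none of the 9 passed for food deprivation in AGRP neurons, where 0.587% of all genes passed, or between the cell types in FD mice, where 6.76% did. Each group mixed libraries of different spike-in volumes, and whether this scaling holds across them was not tested.

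On the length-corrected TPM scale, the order of levels differed between the groups. In AGRP fed neurons Hrh3 was at 158 ± 11.1 TPM (SD, n = 5), above Adra1a at 45.9 ± 9.87, and neither overlapped the receptor next in order, whereas Hrh1 at 17.3 ± 11.99 and the lower ones overlapped their neighbours. In AGRP FD neurons Hrh3 at 16.6 ± 6.62 TPM (n = 6) and Adra1a at 15.4 ± 6.33 overlapped. The POMC fed order began with Adra2a at 36.2 ± 16.5 TPM, Hrh1 at 16.0 ± 9.67 and Drd2 at 15.5 ± 7.65 (n = 5), which overlapped, with Hrh3 at 11.4 ± 1.92. In POMC FD neurons Hrh3 came first at 76.2 ± 39.3 TPM, followed by Adra2a at 41.0 ± 13.7 and Drd2 at 23.8 ± 12.2, again with overlap.

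Summed by coupling, the Gi/o-coupled receptors (Hrh3, Adra2a, Adra2c, Drd2) were at 162 ± 11.5 TPM in AGRP fed and 21.01 ± 9.22 in AGRP FD libraries (SD). In POMC fed libraries this sum was 63.6 ± 24.7 TPM and in POMC FD libraries 142 ± 47.8. Without Hrh3 it was 4.04 ± 2.66 and 4.43 ± 3.62 TPM in AGRP fed and FD, and 52.3 ± 24.2 and 66.1 ± 20.9 in POMC fed and FD libraries. The Gi/o sum of fed AGRP neurons was thus nearly all Hrh3, while that of fed POMC neurons was mostly other receptors.

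The Gq-coupled sum (Hrh1, Adra1a, Adra1b) was 63.9 ± 14.0 TPM in AGRP fed, 19.4 ± 6.51 in AGRP FD, 34.0 ± 10.0 in POMC fed and 29.8 ± 11.5 in POMC FD libraries. The Gs-coupled sum (Hrh2, Adrb1, Drd1a) was 8.35 ± 3.66, 6.77 ± 10.0, 21.7 ± 11.5 and 14.3 ± 8.48 TPM in the same order. These sums include Hrh3, Hrh1 and Adra1a, whose values are described above, and no test was made of them.

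**Figure D3:**
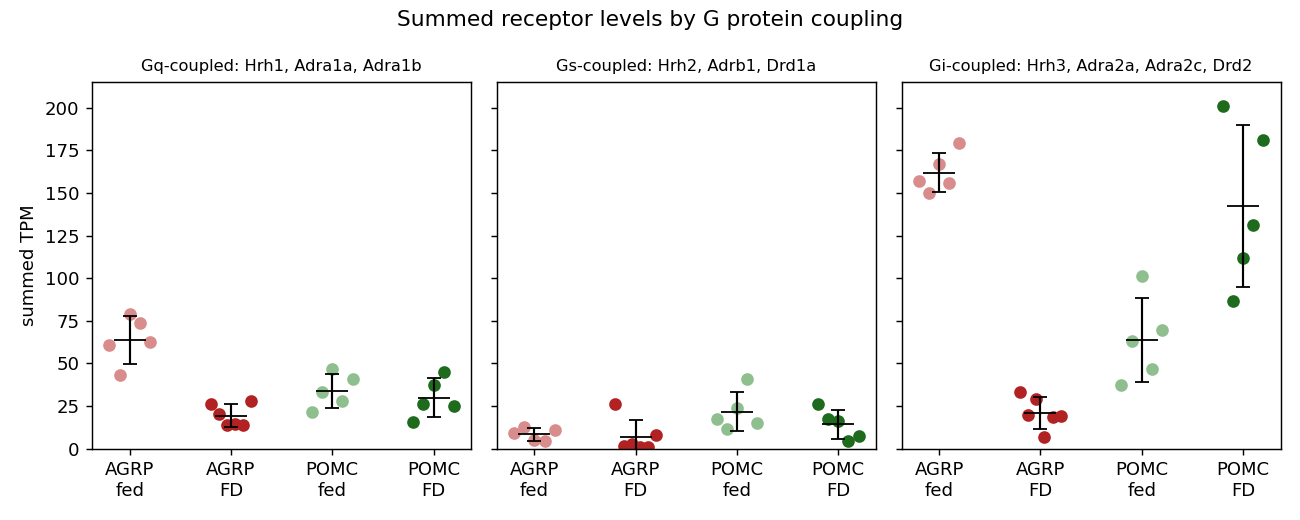
Summed TPM of the receptors in each G protein coupling class, per library (points) with mean and SD (bars). The Gi/o sum (panel marked Gi) was 162 in AGRP fed and 21.01 in AGRP FD, and 63.6 in POMC fed and 142 in POMC FD libraries on average.

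Among other receptors of these families, Hrh4 reached at most 2.74 TPM, and Adra1d, Adra2b, Adrb3, Drd3, Drd4 and Drd5 at most 0.494 TPM in any library, with a median of 0 over libraries for each. None of these passed the low count filter.

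Of 16 genes of amine synthesis, transport and breakdown 13 were tested. In AGRP neurons of FD mice 1 rose and 2 fell (10.3% of all genes passed), and in POMC neurons 1 fell (0.375% of all genes). Slc18a2, the vesicular monoamine transporter, rose in AGRP neurons (1.14 ± 0.24, q = 0.00159) from 8.20 ± 2.99 to 15.0 ± 3.32 TPM (SD), and stayed far below its level in POMC fed libraries of 135 ± 10.96 TPM. Maob, which oxidizes amines, fell in AGRP neurons (-1.73 ± 0.41, q = 0.00542). Gch1, which makes the cofactor precursor for tyrosine hydroxylase, fell in both AGRP (-1.26 ± 0.30, q = 0.00516) and POMC neurons (-1.49 ± 0.32, q = 0.0232).

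Between the cell types, 0 of the 13 amine genes were higher and 3 lower in AGRP neurons of fed mice (7.57% of all genes passed), and 2 were higher and 6 lower in FD mice (18.6%). The contrast of the AGRP change with the POMC change passed for Maob (-2.06 ± 0.59, q = 0.0301) and Slc18a2 (1.21 ± 0.33, q = 0.0236).

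Of 25 genes for G proteins and their first effectors 24 were tested, of which 2 rose and 3 fell in AGRP neurons with food deprivation (5.87% of all genes higher, 4.43% lower) and 1 rose in POMC neurons (0.375% of all genes passed). The adenylyl cyclase gene Adcy2 rose in AGRP neurons (1.38 ± 0.39, q = 0.0209), from 48.0 ± 7.30 to 105 ± 16.9 TPM. Plcb1, a phospholipase C that Gq activates, fell in AGRP neurons (-1.34 ± 0.42, q = 0.0390), and Gnal, which encodes Golf, also fell (-1.03 ± 0.14, q = 1.2e-05). The Gs gene Gnas, named here after its values were seen, rose in AGRP neurons (0.83 ± 0.16, q = 0.000918). In POMC neurons the adenylyl cyclase gene Adcy6 rose (1.06 ± 0.20, q = 0.00659) from 28.6 ± 8.02 to 63.8 ± 7.72 TPM. The contrast of the AGRP change with the POMC change passed for Adcy2 (1.91, q = 0.0357), Adcy6 (-0.92, q = 0.0364), Gnal (-0.85, q = 0.0101) and Gnas (1.02, q = 0.00672), and for Plcb1 it did not (-1.32, q = 0.212).

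All 7 genes of receptor kinases and arrestins were tested, and in AGRP neurons 1 passed with food deprivation (10.3% of all genes). Arrb1, which encodes a beta-arrestin that uncouples activated receptors, rose in AGRP neurons (1.35 ± 0.20, q = 3.91e-05) from 27.5 ± 7.18 to 58.9 ± 16.8 TPM, and it differed from the change in POMC neurons (1.50 ± 0.29, q = 0.00119). No other kinase or arrestin passed with food deprivation in either cell type.

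The profile of Hrh3 over the 21 libraries was compared with those of the 8197 genes that had a mean above 20 CPM in a group, by the root mean square difference of log2 normalized CPM after each gene was centred on its mean. The 5 nearest genes were Pdk2 (0.904), Dnajc28 (0.995), Nr1d2 (1.01), Ccdc85a (1.06) and Gpr26 (1.07), and the median over all genes was 1.63. A gene that did not vary over the libraries would lie at 1.53 from Hrh3, so the likeness is loose. Pdk2, which encodes a kinase that inhibits pyruvate dehydrogenase, had group means of 61.2 normalized CPM in AGRP fed, 16.9 in AGRP FD, 17.1 in POMC fed and 42.0 in POMC FD libraries. Nr1d2, a nuclear receptor of the circadian clock, was at 155, 79.6, 55.2 and 144 normalized CPM in the same order. Gpr26, an orphan receptor, was at 48.1, 17.7, 21.6 and 46.5 normalized CPM. Each of the 5 genes had lower means in AGRP FD than in AGRP fed and higher means in POMC FD than in POMC fed libraries, as their selection for likeness to Hrh3 entails, so no test was made.

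**Figure D4:**
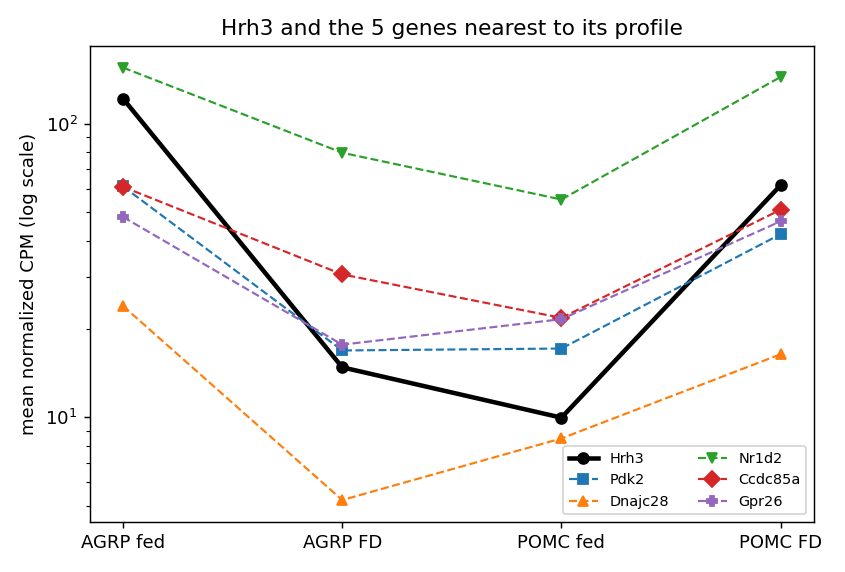
Mean normalized CPM (log scale) in the 4 groups for Hrh3 (solid line) and the 5 genes with the nearest profile (dashed lines), where lines join the groups only to guide the eye. Pdk2 runs from 61.2 in AGRP fed to 16.9 in AGRP FD and from 17.1 in POMC fed to 42.0 in POMC FD, a smaller range than that of Hrh3.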

How the data were processed

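RNA-Seq was available for 21 libraries in 4 groups, assigned from the sample labels, each from a separate mouse. Per the labels and the paper's methods, the authors trimmed reads with cutadapt 1.7.1, removed abundant sequences with Bowtie2 2.1.0, mapped to mm10 with STAR 2.4.0i and counted uniquely mapped reads per gene with HTSeq 0.6.1p1 without regard to strand. The deposited counts are unnormalized values for 35266 genes, and 92 spike-in and 5 summary entries were kept apart (reads outside genes were 25.6 to 55.3% of those listed). The deposited TPM were made by the authors from these counts and exon lengths. Amplified reads carry no molecular identifiers, so the floor of 3 counts and the intervals (95%) of ratios of counts cover counting error only.

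Genes above 1 CPM in at least 3 libraries (16513) were fitted in 1 model with 4 groups by edgeR 4.0.16 (quasi-likelihood, TMM scaling, two-sided, R 4.3.3), and q is the Benjamini-Hochberg adjusted p over all of them. All 10 receptors passed this filter, Hrh2 and Adra2c narrowly. The scripts were tested on simulated counts. Alternatives were limma-voom (limma 3.58.1), DESeq2 1.42.0, RLE scaling, no filter, blocks for replicate number, age and spike-in volume, sorted cells as a covariate, ERCC scaling per cell, the compared groups alone and each library left out. The comparison within AGRP age groups was added after seeing the data.

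The receptors and gene lists were chosen with earlier results of these data known. By rule, all 10 receptors, the other receptors of their families, up to 4 genes per list with the largest change among those called with food deprivation, and the 5 genes nearest to Hrh3 were named. 1 result under this rule is not reported here. Replicate numbers come from the labels and mark different mice. Gene positions are those deposited by the authors, with strand and exon overlap from GENCODE M21.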

Additional observations from a re-analysis of the deposited data

Results flagged for a closer look

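Both ends of each group were checked by Dixon's 95% limit on the gap to the nearest library divided by the range. The share of all genes over this limit was not computed, so the count has no background beside it. The limit was exceeded, each time by the highest library, in 6 of the 40 receptor and group combinations. In normalized CPM, these were Hrh2 in POMC fed replicate 3 (1.69, next 0.154) and in POMC FD replicate 3 (3.80, next 0.981), Adra1a in AGRP fed replicate 4 (110, next 78.5), Adra1b in AGRP fed replicate 5 (2.94, next 0.220), Adra2a in AGRP fed replicate 3 (8.76, next 3.08) and Adrb1 in AGRP FD replicate 1 (13.8, next 0.971). The cause of these values was not tested.

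The change of Hrh3 with food deprivation was negative in AGRP and positive in POMC neurons, with a difference of -5.67 on the log2 scale. Every FD library lay below the fed libraries in AGRP neurons and above them in POMC neurons. The difference is listed because Hrh3 was chosen for it, and for the same reason it was not tested. No other receptor was screened here for opposite changes.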

How the results depend on the processing

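The counts of receptors that passed were 2 for food deprivation in AGRP neurons, 0 in POMC neurons, 4 between the cell types in fed mice, 5 in FD mice and 0 for the difference in change. Spike-in scaling per cell gave 0 for food deprivation in AGRP neurons (0.587% of all genes passed), 2 in fed mice (1.80%) and 0 in FD mice (6.76%), with median shifts of all genes of -1.11 in POMC neurons, 1.10 between the cell types in FD mice and 1.04 for the difference in change. Under it Hrh3 was 1.42 in POMC neurons, -0.62 between the cell types in FD mice and -4.33 for the difference in change, and Adrb1 between the cell types in FD mice became positive (0.16). The groups differed in their mix of spike-in volumes, so the median shifts and the volume cannot be told apart. The AGRP libraries of postnatal day 46 or 47 alone gave 0 (0.527% of all genes passed) and those of postnatal day 51 to 55 alone gave 1 (6.78%) for food deprivation.

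Leaving out 1 library at a time gave 1 to 4 receptors for food deprivation in AGRP neurons (1 without AGRP fed replicate 3, with 7.55% of all genes, and 4 without AGRP FD replicate 1, with 11.6%), 0 to 1 for the difference in change (1, Adra1b, without AGRP fed replicate 5), 4 to 6 in FD mice, and the reported counts otherwise. The change of Adrb1 in AGRP neurons became negative with limma-voom (-2.15), with blocks for age (-1.38) or spike-in volume (-0.92) and in the older mice (-3.02), and ranged from -2.69 to 0.59 over left-out libraries. Adra1b was -0.10 in the younger mice. With DESeq2 Drd2 passed in AGRP neurons (q = 0.0158), as did Adrb1 with the fed groups alone (-2.20, q = 0.0483) and with limma-voom in FD mice (-3.82, q = 0.00967).

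Replicate numbers were not treated as pairs of mice. The deviations of same-numbered libraries correlated above 0.1 in 2 of 30 pairs (-0.199 to 0.114). Differently numbered libraries were not compared, so this check cannot show whether the numbers pair the mice. With the replicate block the log2 fold change of Hrh3 was -3.08 in AGRP and 2.54 in POMC neurons, Adrb1 in AGRP neurons was -1.14, and no count moved by over 1.5 times and no call changed. At this depth Hrh2, Adra2c and, in AGRP neurons, Drd2 were too close to the floor for a fold to be read. Their fitted values, where given or drawn, are therefore uncertain in size.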
